A study of Mus musculus with 10 samples.

Results

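Endoplasmic reticulum folding and unfolded protein response genes were followed in RAW264.7, a macrophage-like mouse cell line from a tumour induced by a virus, kept with doxorubicin or in medium alone. The set holds 42 genes picked by symbol for the sensors, chaperones, disulfide and prolyl isomerases, translocation and glycosylation factors and degradation factors of this organelle, and all 42 were found among the 22186 genes of the table. A mean of at least 1 FPKM (fragments per kilobase of transcript, scaled to library size) was required for testing, which 41 of the 42 and 9869 of all genes reached. The gene left out was Derl3, a derlin of the degradation channel, with 0.687, 0.782, 1.61, 0.826 and 1.17 FPKM in doxorubicin replicates 1 to 5 and 0.377, 0.839, 1.06, 0.465 and 0.347 FPKM in medium replicates 1 to 5. Cells were kept for 24 h in medium with doxorubicin, which traps topoisomerase II on DNA (5 libraries), or in medium (5 libraries), all labelled WT. Whether replicates were separate cultures is not stated, and the p-values therefore cover the spread between these libraries, which may be technical. The dose stands as 10 nM in the titles and 100 nM in the series design, which states that its own value is the right one, and the dilution in the protocol gives 1000 nM. The solvent, dimethyl sulfoxide, is named for doxorubicin only, and all results are those of 1 cell line.

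Proteins bound for secretion, the cell surface or lysosomes enter the endoplasmic reticulum through the SEC61 channel, receive N-linked sugars and are folded there by chaperones and disulfide isomerases. When unfolded protein accumulates, the sensors IRE1 (gene Ern1), PERK (Eif2ak3) and ATF6 (Atf6) start the unfolded protein response: IRE1 splices the Xbp1 mRNA, PERK slows translation and raises ATF4, and ATF6 is cut into a transcription factor. XBP1 and ATF6 raise chaperone and degradation genes, and proteins that fail to fold are drawn back to the cytosol for the proteasome. Macrophages secrete lysozyme, cytokines and lysosomal enzymes through this route.

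The libraries differed in ways that the treatment labels do not describe. Pearson correlations of log2(FPKM + 1) over tested genes ran from 0.937 to 0.982 between a replicate 1 library and one of replicates 2 to 5, against 0.976 to 0.998 among replicates 2 to 5. The ferritin gene Fth1 took 3.88% of the summed FPKM in doxorubicin replicate 1 and 2.14% to 2.47% in doxorubicin replicates 2 to 5, against 5.21% in medium replicate 1 and 2.14% to 2.56% in medium replicates 2 to 5. Replicates 2 and 3 resembled each other, as did 4 and 5. The p53 targets Cdkn1a, Mdm2 and Ccng1 were higher with doxorubicin in 5 of 5 replicate numbers. Of 12 macrophage markers, 11 reached a mean of 1 FPKM, and their summed FPKM was 2949 to 4511 with doxorubicin and 2700 to 4110 in medium. With the replicate block described below, 3 of these 11 rose (Lyz2, Itgam and Ctsd) and 0 fell, where 7.81% of all tested genes rose and 13.7% fell. Of the 11, 5 were higher with doxorubicin in 5 of 5 numbers, against 13.2% of all tested genes. The part of these markers in the results was not tested. None of 5 lymphocyte markers and 8 markers of fibroblasts, epithelium and endothelium reached that level, and Cd3e, Col3a1, Krt8 and Krt18 were at 0 in every library. Of 6 plasma cell markers, a cell type rich in this organelle, Sdc1 alone reached a mean of 1 FPKM, and their summed FPKM was 40.8 to 52.2 with doxorubicin and 22.4 to 39.7 in medium. Sdc1 itself averaged 43.6 ± 5.19 FPKM with doxorubicin and 29.5 ± 7.44 FPKM in medium (SD, n = 5 each), with groups that did not overlap and a rise of 0.58 with the block, and its part in the results below was not tested.

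Several of these genes carry the endoplasmic reticulum stress element (ERSE), a promoter sequence that the factor NF-Y binds at CCAAT and ATF6 at CCACG. Its full form, CCAAT and CCACG with 9 bases of any kind between them, was searched on both strands of RefSeq promoter windows that run from 250 bases before to 50 bases after each gene start (GRCm38.p6, an earlier build than the GRCm39 of the expression values). It was in 9 of the 35 member genes with a window (25.7%) and in 37 of 27025 genes in all (0.137%). A shorter form that ends in CCA, which every full element also holds, was in 15 of the 35 (42.9%) and in 1.25% of all genes. The member genes were picked for this organelle and its stress response, so these shares are a description and not a test. Shown first are the 250 bases before the start of Hspa5, Calr and Hsp90b1, which encode abundant luminal chaperones, read along the gene, with full elements in capitals. An element on the opposite strand begins with CGTGG and ends with ATTGG. The Hspa5 element lies at -65 to -47 from the start and that of Calr, on the opposite strand, at -162 to -144. Those of Hsp90b1 lie at -212 to -194 and, on the opposite strand, at -107 to -89.
Hspa5, chr2:34771840-34772089, plus strand: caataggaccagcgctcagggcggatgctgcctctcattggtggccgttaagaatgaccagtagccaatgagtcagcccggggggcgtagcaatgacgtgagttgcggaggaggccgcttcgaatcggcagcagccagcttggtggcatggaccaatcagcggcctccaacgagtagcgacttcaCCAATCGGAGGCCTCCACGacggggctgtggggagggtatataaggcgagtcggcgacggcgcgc
Calr, chr8:84846932-84847181, minus strand: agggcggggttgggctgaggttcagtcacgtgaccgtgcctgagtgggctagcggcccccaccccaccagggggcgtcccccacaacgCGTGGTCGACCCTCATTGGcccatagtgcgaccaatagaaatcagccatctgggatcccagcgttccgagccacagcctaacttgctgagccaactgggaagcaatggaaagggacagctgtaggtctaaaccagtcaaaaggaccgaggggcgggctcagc
Hsp90b1, chr10:86705445-86705694, minus strand: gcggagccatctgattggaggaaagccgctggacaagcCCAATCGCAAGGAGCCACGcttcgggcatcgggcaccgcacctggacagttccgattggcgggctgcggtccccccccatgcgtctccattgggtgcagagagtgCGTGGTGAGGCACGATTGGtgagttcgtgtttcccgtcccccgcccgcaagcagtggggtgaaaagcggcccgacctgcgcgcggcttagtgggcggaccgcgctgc
The other full elements are shown with a few flanking bases in lower case.
Pdia6: cagagaCCAATGAAAGGCGGCCACGgcgtg
Creld2: gcttctCGTGGCGAGCCTCAATTGGtccac
Dnajc3: ccacaaCCAATCAGCGCCAACCACGacccg
Canx: tattgaCCAATCACCACGCTCCACGaagaa
Syvn1: tcgcaaCCAATCGGCGGTAGCCACGggaac
Derl3: ctctacCGTGGGACTTCCCCATTGGctagc
A second form of the element, ATTGG and CCACG with 1 base between them, was in 2 of the 35 member genes, Herpud1 and Dnajb11, and in 12 of the 27025 genes.
Herpud1: gcgctgATTGGGCCACGttgga
Dnajb11: gcggcgATTGGCCCACGcctgg

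When doxorubicin and medium libraries of the same replicate number were compared, 12 of the 41 tested genes rose with doxorubicin (29.3%, against 7.81% of all tested genes). In the same comparison 5 fell (12.2%, against 13.7%). The median level in medium was 44.6 FPKM over the 41 genes and 12.8 FPKM over all tested genes. These shares were not matched for level. Those that rose were 6 of 11 genes listed with the chaperones (Manf and Creld2 among them), 3 of 8 isomerase genes, the calreticulin gene, Xbp1 and Sec61b. Those that fell were the genes of the sensors IRE1 and ATF6, 1 gene listed with the chaperones and 2 of 10 degradation genes. The labels do not state that libraries of the same number are a pair. With the number left out of the model, 0 genes of the set passed. The 42 genes together summed to 3928, 4099, 4327, 3651 and 3671 FPKM in doxorubicin replicates 1 to 5, against 3198, 4167, 3943, 3010 and 2988 FPKM in medium replicates 1 to 5. The share of each library's FPKM was 1.05% to 1.23% with doxorubicin and 0.871% to 1.19% in medium. The sum was higher with doxorubicin in replicates 1, 3, 4 and 5 and lower in replicate 2. In bulk RNA, a change in the share of cells of one state and a change in RNA per cell cannot be told apart.

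Without the replicate number in the model, 0 of the 41 tested genes passed a limma adjusted p of 0.05 in either direction, where 0.912% of all tested genes did (68 higher and 22 lower). Of the 41, 9 had an unadjusted p under 0.05 (22.0%, against 17.8% of all tested genes). The exact permutation test with adjustment called 0, but its smallest p is 0.00794 and a call would need at least 1567 genes at that p, so this count says nothing about the set. With the replicate number as a block, which compares doxorubicin with medium inside each number, 12 of the 41 rose (29.3%, against 7.81% of all tested genes) and 5 fell (12.2%, against 13.7%). Either way, 21.6% of all tested genes passed, and the share of the 41 that fell was near that of all genes. Without the replicate 1 libraries, the block called 13 of the 41 higher (10.2% of all tested genes) and 7 lower (18.4%, and 28.6% in either direction). The median log2 fold change was 0.12 over the 41 genes and -0.03 over all 9869. Below, "rose" and "fell" refer to the fit with this block, and all fold changes are differences of log2(FPKM + 1), where low genes show less than their full change. Scaling each library to the same median turned the blocked counts of all genes from 771 higher and 1356 lower into 1420 and 828, and those of the 41 genes into 18 higher and 2 lower. The falls of Atf6, Sil1 and Os9 missed the threshold there (adjusted p = 0.0590, 0.0741 and 0.0830). The blocked counts also changed with the libraries used and with the filter. With both libraries of number 4 or of number 5 left out, the block called 1 of the 41 higher and 0 lower. With number 2 left out it called 14 and 4, with number 3 left out 5 and 5, and with no filter on low values 0. Counts of all tested genes in these fits are not given here. Fewer libraries make calls harder for every gene, so these counts cannot show a loss particular to the 41.

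**Figure D1:**
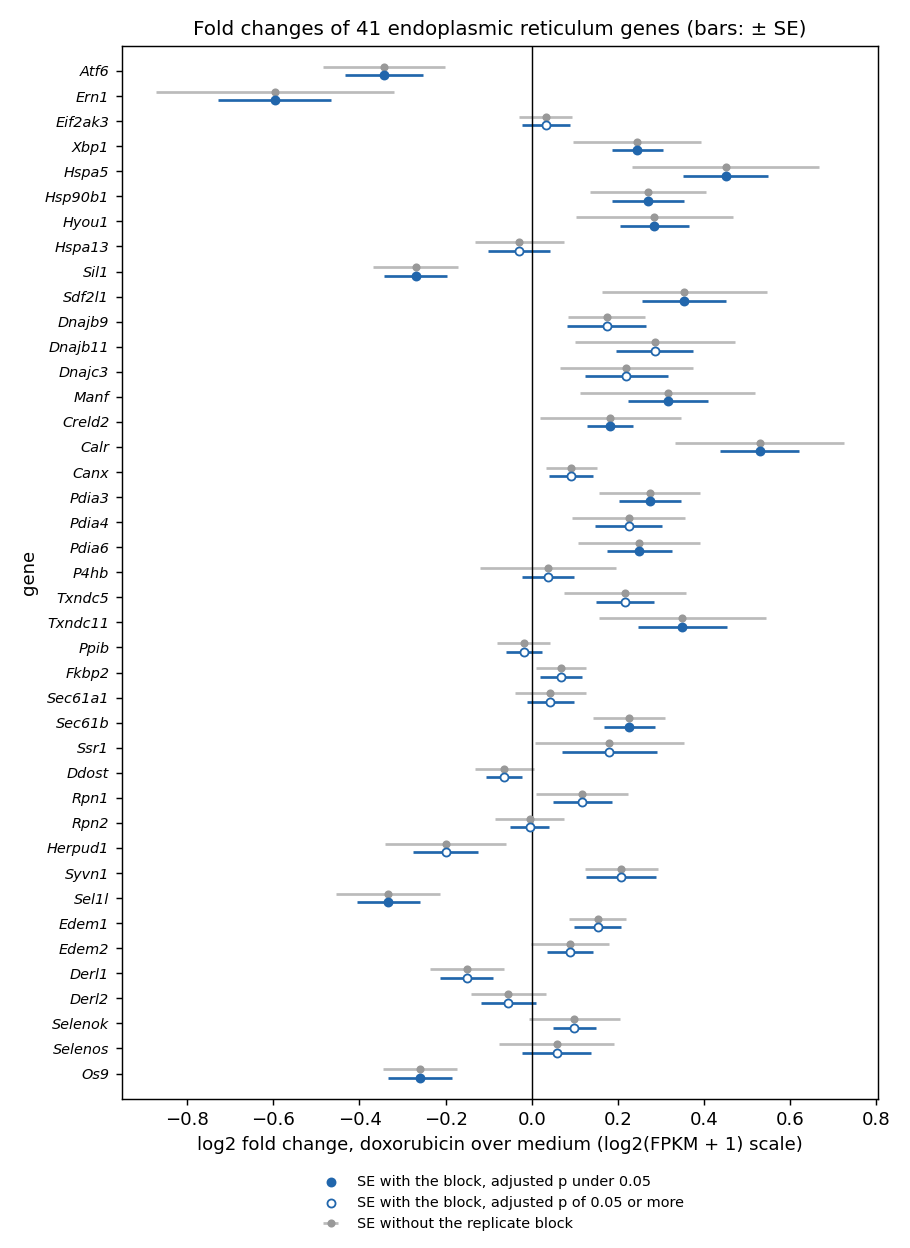
Log2 fold change of doxorubicin over medium (x axis, log2(FPKM + 1) scale) for the 41 tested genes (y axis), with ± SE with the replicate block (blue, filled where the adjusted p is under 0.05) and without it (grey). Calr lies farthest to the right at 0.53 and Ern1 farthest to the left at -0.60, and the bars are shorter with the block for most genes.

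Of the 3 sensor genes, those of IRE1 and ATF6 fell with doxorubicin and that of PERK did not pass. Ern1, which encodes IRE1, had 9.56, 6.31, 7.62, 10.5 and 10.6 FPKM in doxorubicin replicates 1 to 5, against 22.1, 7.80, 8.44, 17.5 and 18.8 FPKM in medium replicates 1 to 5. It fell by 0.60 on the log2 scale (SE 0.13, limma adjusted p = 0.0175 with the block, 0.288 without it and 0.00554 to 0.525 over all settings). The medium libraries 1, 4 and 5 lay above every doxorubicin library, while medium 2 and 3 lay within the doxorubicin range. Atf6 had 14.6, 19.6, 19.8, 23.5 and 21.5 FPKM in doxorubicin replicates 1 to 5, against 24.4, 20.8, 21.3, 30.2 and 30.3 FPKM in medium replicates 1 to 5. It fell by 0.34 (SE 0.09, adjusted p = 0.0312 with the block, range over settings 0.00592 to 0.477). Each number was lower with doxorubicin, although the groups overlapped.

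Eif2ak3, the gene of PERK, had 6.41, 5.59, 5.79, 6.27 and 6.18 FPKM in doxorubicin replicates 1 to 5, against 6.28, 5.99, 5.97, 5.63 and 5.57 FPKM in medium replicates 1 to 5. Its fold change was 0.03 (SE 0.06, adjusted p = 0.700 with the block, range over settings 0.104 to 0.949), and the groups overlapped throughout. Xbp1, whose spliced mRNA encodes the factor downstream of IRE1, had 50.9, 67.9, 52.2, 47.5 and 45.2 FPKM in doxorubicin replicates 1 to 5, against 47.1, 56.0, 49.4, 36.7 and 34.0 FPKM in medium replicates 1 to 5. It rose by 0.25 (SE 0.06, adjusted p = 0.0240 with the block, 0.418 without it, range over settings 0.00692 to 0.700) and was higher in 5 of 5 numbers. FPKM per gene does not separate spliced from unspliced Xbp1 mRNA.

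Among 11 genes listed as chaperones and cochaperones of the HSP70 and HSP90 families, 6 rose, 1 fell and 4 did not pass. The list also holds the secreted factors Manf and Creld2, and both are among the 6. Hspa5, which encodes BiP, the main HSP70 of the organelle, which binds the sensors at rest, had 351, 377, 413, 285 and 291 FPKM in doxorubicin replicates 1 to 5, against 238, 375, 337, 176 and 178 FPKM in medium replicates 1 to 5. It rose by 0.45 (SE 0.10, adjusted p = 0.0170 with the block, 0.304 without it, range over settings 0.00420 to 0.565). The differences by number were 0.56, 0.01, 0.29, 0.69 and 0.70, so that replicate 2 showed almost none. Hsp90b1, which encodes GRP94, had 397, 395, 434, 367 and 364 FPKM in doxorubicin replicates 1 to 5, against 300.3, 419, 398, 267 and 264.8 FPKM in medium replicates 1 to 5. It rose by 0.27 (SE 0.08, adjusted p = 0.0487 with the block, range over settings 0.00740 to 0.584) and was lower with doxorubicin in replicate 2. Without the replicate 1 libraries, its adjusted p with the block was 0.0588, and that of Manf, a factor described next, 0.0520.

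Sdf2l1, a cochaperone of BiP and its J proteins, had 93.0, 101, 107, 75.9 and 84.0 FPKM in doxorubicin replicates 1 to 5, against 58.4, 104, 96.5, 54.8 and 57.4 FPKM in medium replicates 1 to 5 (rise of 0.35, SE 0.10, adjusted p = 0.0353 with the block, range over settings 0.0131 to 0.626). Hyou1, a nucleotide exchange factor for BiP, had 54.5, 73.7, 75.4, 56.6 and 57.2 FPKM in doxorubicin replicates 1 to 5, against 34.0, 70.7, 64.5, 48.4 and 47.6 FPKM in medium replicates 1 to 5, and was higher in 5 of 5 numbers (rise of 0.29, SE 0.08, adjusted p = 0.0373 with the block, range 0.0124 to 0.670). Manf, a secreted neurotrophic factor held back by BiP, had 134.5, 176, 179, 136 and 139 FPKM in doxorubicin replicates 1 to 5, against 92.9, 186, 164, 96.2 and 97.6 FPKM in medium replicates 1 to 5. In each of these 3 genes medium 2 and 3 were as high as most doxorubicin libraries and the other medium libraries were lower, so the groups overlapped. Manf rose by 0.32 (SE 0.09, adjusted p = 0.0429 with the block, range 0.0164 to 0.698), and its annotated exons overlap those of Dcaf1 (9.09 FPKM, opposite strand) and Rbm15b (6.13 FPKM, same strand). Creld2, a secreted factor induced by this kind of stress, rose by 0.18 (adjusted p = 0.0425 with the block, range 0.0141 to 0.847).

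Sil1, another nucleotide exchange factor for BiP, went the other way. It had 8.38, 9.28, 9.45, 10.4 and 10.97 FPKM in doxorubicin replicates 1 to 5, against 13.0, 10.3, 10.2, 13.0 and 13.2 FPKM in medium replicates 1 to 5, and fell by 0.27 (SE 0.07, adjusted p = 0.0344 with the block, range 0.0110 to 0.406). All 5 numbers were lower with doxorubicin. The genes of the J proteins, which hand clients to BiP, did not pass with the block. Dnajb11 was at 70.6 ± 9.37 FPKM with doxorubicin and 59.4 ± 17.3 FPKM in medium, Dnajc3 at 6.10 ± 0.549 and 5.24 ± 1.63 FPKM, and Dnajb9 at 7.92 ± 1.00 and 6.88 ± 0.586 FPKM (SD, n = 5). Their fold changes were 0.29 (limma adjusted p = 0.0540 with the block, range 0.0210 to 0.671), 0.22 (0.127, range 0.0291 to 0.729) and 0.17 (0.194, range 0.0351 to 0.579). Without the replicate 1 libraries, Dnajb11 passed with the block (adjusted p = 0.0434). The HSP70 relative Hspa13 was at 10.7 ± 0.557 FPKM with doxorubicin and 11.1 ± 1.75 FPKM in medium.

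The lectin chaperones, which hold glycoproteins by their trimmed sugars, are a soluble and a membrane-bound protein, and the soluble one rose. Calr, the gene of soluble calreticulin, was the most abundant of the 42 in medium and had the largest rise. It had 471, 557, 577, 433 and 439.7 FPKM in doxorubicin replicates 1 to 5, against 288, 498, 465, 264 and 259.5 FPKM in medium replicates 1 to 5. It rose by 0.53 (SE 0.09, adjusted p = 0.00782 with the block, 0.196 without it, range over settings 0.00142 to 0.412) and was higher in 5 of 5 numbers, with differences of 0.71, 0.16, 0.31, 0.71 and 0.76. Calr was past the threshold in each of the 5 blocked fits that left out 1 number (highest adjusted p 0.0399) and missed it with the block and no filter on low values (0.0502). Canx, the gene of membrane-bound calnexin, averaged 204 ± 4.10 FPKM with doxorubicin and 192 ± 13.4 FPKM in medium (SD, n = 5), a fold change of 0.09 that did not pass (adjusted p = 0.219 with the block, range 0.0164 to 0.697).

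**Figure D2:**
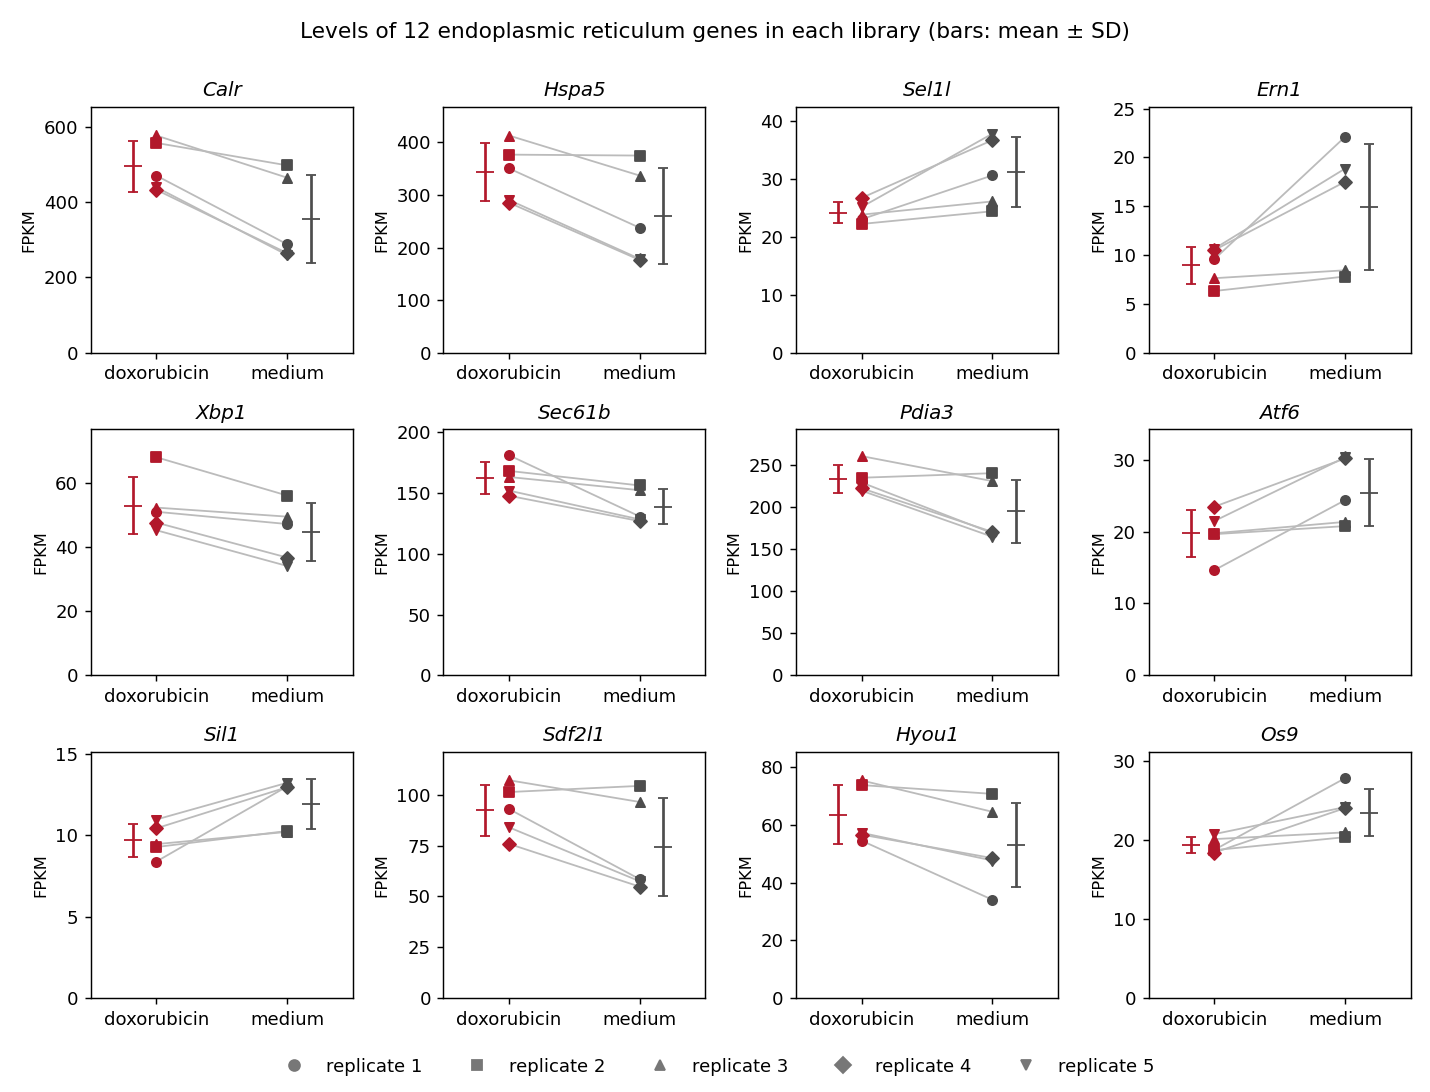
FPKM (y axis, linear from 0) with doxorubicin (left) and in medium (right) for the 12 genes with the smallest adjusted p in the fit with the replicate block. Marker shapes give the replicate number, grey lines join the libraries of a number, and bars beside the points are the mean ± SD (n = 5). For Calr, Hspa5 and Sdf2l1 the lines of replicates 1, 4 and 5 are steepest, that of replicate 2 is the shallowest for Calr and Hspa5, and that of replicate 3 lies between. For Ern1, Atf6 and Sel1l the lines of replicates 1, 4 and 5 are steepest in the other direction.

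Of 8 genes for disulfide and prolyl isomerases, 3 rose and 0 fell. Pdia3, whose product works with the lectin chaperones, had 229.7, 235, 261, 223 and 219.9 FPKM in doxorubicin replicates 1 to 5, against 169, 241, 231, 171 and 165 FPKM in medium replicates 1 to 5 (rise of 0.27, SE 0.07, adjusted p = 0.0302 with the block, range 0.00555 to 0.494). Pdia6 had 165, 171, 186, 149 and 150.0 FPKM in doxorubicin replicates 1 to 5, against 131, 179.5, 168, 114 and 109 FPKM in medium replicates 1 to 5 (rise of 0.25, SE 0.08, adjusted p = 0.0471 with the block, range 0.0130 to 0.663). Txndc11, a thioredoxin-domain gene whose exons overlap Snn on the opposite strand (2.16 FPKM), had 16.0, 20.6, 18.9, 16.1 and 15.6 FPKM in doxorubicin replicates 1 to 5, against 9.33, 20.1, 18.5, 11.3 and 10.9 FPKM in medium replicates 1 to 5 (rise of 0.35, SE 0.10, adjusted p = 0.0432 with the block, range 0.0150 to 0.616). All 3 had overlapping groups, with medium 2 and 3 at the level of the doxorubicin libraries. Pdia4 (0.23) and Txndc5 (0.22), of the same family, had adjusted p of 0.0695 (range 0.0142 to 0.670) and 0.0509 (range 0.0183 to 0.669) with the block. P4hb, the gene of protein disulfide isomerase itself, averaged 276 ± 41.1 FPKM with doxorubicin and 273 ± 72.4 FPKM in medium, and the prolyl isomerase genes Ppib and Fkbp2 had fold changes of -0.02 and 0.07.

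Of 6 genes for translocation and glycosylation, 1 rose and 0 fell. Sec61b, the beta subunit of the translocation channel, had 181, 168, 163, 148 and 152 FPKM in doxorubicin replicates 1 to 5, against 131, 156, 152, 127 and 128 FPKM in medium replicates 1 to 5. It rose by 0.23 (SE 0.06, adjusted p = 0.0300 with the block, range 0.00724 to 0.412), was higher in 5 of 5 numbers, and its groups overlapped. Sec61a1, the pore subunit, averaged 107 ± 5.33 FPKM with doxorubicin and 104 ± 11.7 FPKM in medium. The oligosaccharyltransferase subunit genes Ddost, Rpn1 and Rpn2 had fold changes of -0.06, 0.12 and -0.00, and Ssr1, of the translocon-associated complex, one of 0.18 (adjusted p = 0.259 with the block, range 0.0995 to 0.897).

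Of 10 tested degradation genes, 0 rose and 2 fell. Sel1l, the partner that stabilises the ubiquitin ligase HRD1, had 23.0, 22.2, 23.8, 26.7 and 25.1 FPKM in doxorubicin replicates 1 to 5, against 30.6, 24.4, 26.1, 36.7 and 37.8 FPKM in medium replicates 1 to 5. It fell by 0.33 (SE 0.07, adjusted p = 0.0174 with the block, range 0.00237 to 0.405), with each number lower. Os9, a lectin that brings misfolded glycoproteins to this ligase, had 18.7, 18.7, 20.1, 18.4 and 20.7 FPKM in doxorubicin replicates 1 to 5, against 27.8, 20.3, 20.9, 24.0 and 24.1 FPKM in medium replicates 1 to 5. It fell by 0.26 (SE 0.07, adjusted p = 0.0400 with the block, range 0.00451 to 0.348), also in 5 of 5 numbers, and medium 2 was the only medium library below the highest doxorubicin library. Syvn1, the gene of HRD1 itself, did not pass and averaged 14.6 ± 1.08 FPKM with doxorubicin and 12.5 ± 1.31 FPKM in medium (fold change 0.21, adjusted p = 0.0951 with the block, range 0.0415 to 0.413).

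Edem1, a lectin-like factor that takes glycoproteins out of the folding cycle, was the 1 gene of the 41 whose groups did not overlap, where 2.73% of all tested genes were higher and 3.97% lower without overlap. It had 36.3, 36.0, 39.5, 37.7 and 36.5 FPKM in doxorubicin replicates 1 to 5, against 35.6, 35.2, 35.2, 30.5 and 30.7 FPKM in medium replicates 1 to 5. Its fold change of 0.15 did not pass with the block (SE 0.05, adjusted p = 0.0771, range 0.00208 to 0.503). Herpud1, which links the ligase to other factors and is induced by several of the stress branches, averaged 37.9 ± 7.51 FPKM with doxorubicin and 43.4 ± 5.96 FPKM in medium (adjusted p = 0.0875 with the block, range 0.0200 to 0.783). Edem2, Derl1, Derl2, Selenok and Selenos had fold changes between -0.15 and 0.10 and did not pass with the block. Without the replicate 1 libraries, the block called 1 of the 10 degradation genes higher, Edem1 (limma adjusted p = 0.0251). It called 4 lower, Derl1 (0.0304) and Herpud1 (0.0200) among them, where 10.2% of all tested genes were called higher and 18.4% lower. Derl2 exons overlap those of Mis12 on the opposite strand (12.1 FPKM).

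**Figure D3:**
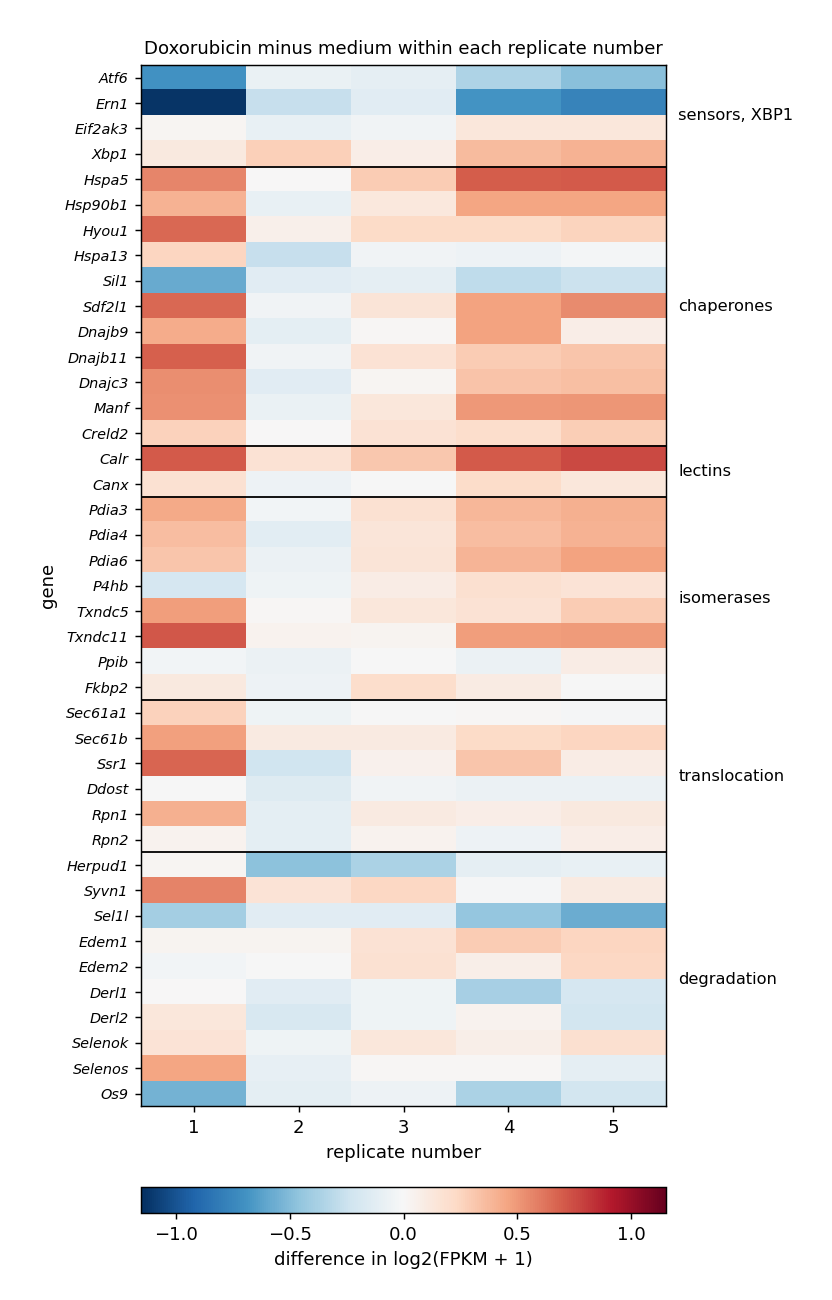
Difference in log2(FPKM + 1), doxorubicin minus medium, for each of the 41 tested genes (rows, grouped by role) within each replicate number (columns 1 to 5), red where doxorubicin was higher and blue where it was lower. The column of replicate 2 is pale, with a median of -0.07, while replicates 1, 4 and 5 have medians of 0.26, 0.17 and 0.13.

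The direction of the difference was the same in all replicate numbers for a part of the set. Of the 41 genes, 9 were higher with doxorubicin in 5 of 5 numbers (22.0%, against 13.2% of all tested genes) and 6 were lower in 5 of 5 (14.6%, against 23.1%). The medians of the within-number differences over the 41 genes were 0.26, -0.07, 0.08, 0.17 and 0.13 for numbers 1 to 5, where those over all tested genes were 0.02, -0.07, 0.00, -0.03 and -0.03. By role, the chaperones and cochaperones had medians of 0.53, -0.08, 0.13, 0.33 and 0.32, and the degradation genes 0.03, -0.10, -0.01, -0.00 and -0.10.

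The difference between doxorubicin and medium was larger in numbers 4 and 5 than in numbers 2 and 3 for several chaperone genes. A limma interaction test over these 8 libraries called 8 of the 41 genes (19.5%, against 1.56% of all tested genes), and with the replicate block it called 10 of the 41 and 249 genes in all, against 154. Calr (0.73 in numbers 4 and 5, 0.24 in numbers 2 and 3, adjusted p = 0.00808), Hspa5 (0.70 and 0.15, 0.0197), Hsp90b1 (0.46 and 0.02, 0.0232), Manf (0.50 and 0.03, 0.0241), Sdf2l1 (0.50 and 0.05, 0.0385), Pdia6 (0.43 and 0.04, 0.0385) and Txndc11 (0.48 and 0.03, 0.0388) had larger rises, and Sel1l (-0.51 and -0.13, 0.0499) a larger fall. All 8 calls were lost with no filter on low values (adjusted p of 0.0794 to 0.163). The sets were read from these same values, and if libraries of a set are not independent the p-values are too small.

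These genes differed between the sets in medium, too. In doxorubicin libraries, Hspa5 differed by -0.45 on the log2 scale between numbers 4 and 5 and numbers 2 and 3, and in medium libraries the gap was -0.9996. For Calr the gap was -0.38 with doxorubicin and -0.87 in medium, for Manf -0.36 and -0.84, and for Sel1l, in the other direction, 0.16 and 0.54. Of the 41 genes, 30 were lower in medium 4 and 5 than in medium 2 and 3 (73.2%, against 44.8% of all tested genes). These included all 12 that rose, where 74.6% of all genes that rose were lower there. The 5 that fell were higher there, as were 88.7% of all genes that fell. The same medium libraries enter the gap and the fold change, so the 2 are not independent. The ratio of the highest to the lowest library was smaller with doxorubicin than in medium for 35 of the 41 genes (85.4%), and so it was for 71.8% of all tested genes.

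**Figure D4:**
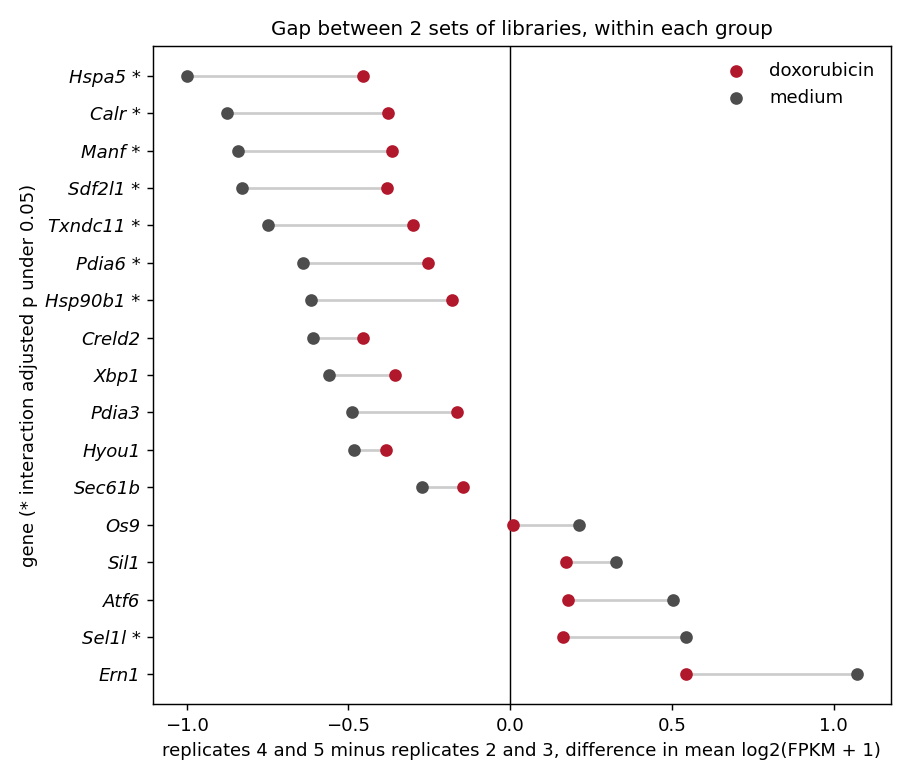
Mean log2(FPKM + 1) of replicates 4 and 5 minus that of replicates 2 and 3 (x axis) with doxorubicin (red) and in medium (grey) for the 17 genes that rose or fell with the replicate block (y axis; stars mark an interaction adjusted p under 0.05). Each red point lies nearer to 0 than the grey point of its gene, from -0.45 against -0.9996 for Hspa5 to 0.54 against 1.07 for Ern1.

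The promoter element can be set beside these changes. Of the 12 genes that rose, 10 had a promoter window and 5 of these held the full element (Hspa5, Hsp90b1, Calr, Pdia6 and Creld2). Of the 5 that fell, 3 had a window and 0 held it, and of the tested genes that did neither, 21 had a window and 3 held it (Canx, Dnajc3 and Syvn1). A match is a string of letters in this window and not a measured binding site, and these counts were not tested.

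Other genes of the same organelle, outside the 42, went in both directions. Of 100 tested, 0 passed without the block (15 with an unadjusted p under 0.05, where 17.8% of all tested genes had one). With it 9 rose and 10 fell, near the 7.81% of all tested genes that rose and the 13.7% that fell, and the median log2 fold change was 0.00. The counts of each list below stand beside the same shares. Of 20 other folding enzyme genes, 3 rose and 2 fell: Ero1a, the oxidase that recharges the disulfide isomerases, averaged 137 ± 66.9 FPKM with doxorubicin and 254 ± 172 FPKM in medium (fall of 0.81, adjusted p = 0.00111 with the block, range 3.73e-05 to 0.568), and the prolyl isomerase genes Fkbp11 (0.53, adjusted p = 0.00419, range 7.34e-04 to 0.427) and Fkbp9 (0.37, adjusted p = 0.00773, range 0.00123 to 0.340) rose. Of 6 other sensors and activators, 0 rose and 1 fell, Tmbim6, a membrane protein gene that restrains IRE1 (-0.25, adjusted p = 0.0102, range 0.00211 to 0.416). Of 21 other translocation and signal peptidase genes, 2 rose, the signal recognition particle receptor gene Srpr (0.29) and Ssr4 (0.14), and 0 fell.

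Of 16 other N-glycosylation genes, 2 rose and 3 fell, among them the oligosaccharyltransferase subunit gene Ost4 (0.29), and Alg8 (-0.24) and Dpagt1 (-0.31), which build the sugar donor. Of 18 other degradation genes, 2 rose and 3 fell, including the glycanase gene Ngly1 (-0.26), the mannosidase gene Man1b1 (0.16) and Herpud2 (-0.19). Of 19 genes for transport to the Golgi, 0 rose and 1 fell, the cargo receptor gene Tmed10 (-0.19). Of 10 genes listed for ATF4 and the PERK branch, Atf4 itself among them, 0 passed without the block (8 with an unadjusted p under 0.05). With it 8 fell and 0 rose, where 13.7% of all tested genes fell, and the median was -0.81. Among those that fell were Trib3 (-2.08), Asns (-0.66) and Ddit3, the gene of CHOP (25.2 ± 15.5 FPKM with doxorubicin and 80.6 ± 52.1 FPKM in medium, a fall of 1.53, adjusted p = 3.38e-04, range 1.32e-05 to 0.457). Which input lowered these genes was not tested.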

How the data were processed

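Poly(A) RNA of 10 RAW264.7 libraries was sequenced, per the labels' protocols. The deposited values were FPKM, 1 column per library, matched through the library names of the labels. Per the submitters' processing notes the build was GRCm39, and the aligner and quantifier are not given in the sources used here. The authors' FPKM values hold no read totals and their low values show no whole-read steps, so the depth is unknown and no counting interval is given. FPKM summed to 338293 to 356111 per library.

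Values were tested as log2(FPKM + 1) for the 9869 genes that averaged 1 FPKM or more, with limma 3.58.1 in R 4.3.3 (group as the only term, mean-variance trend, two-sided, Benjamini-Hochberg over all tested genes, adjusted p under 0.05). The fits were run on simulated data built with effects of the replicate number and independent noise. Such data cannot show whether same-numbered libraries are pairs or whether libraries of a set are independent. The replicate numbers come from the titles. Deviations from the group means of same-numbered libraries correlated at 0.524 to 0.794, libraries of numbers 2 with 3 or 4 with 5 at 0.509 to 0.692, and other pairs at -0.61 to 0.0029. Since every same-numbered value was above 0.1, a fit with the number as a block stands beside the fit without it. Single genes were also compared by a two-sided exact permutation test over libraries, whose smallest p is 0.00794.

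The 42 genes and all lists were chosen with earlier results of these data known, so no list was tested as a set. A gene of the marker lists is not reported here. Values in every library were printed for the 12 genes with the smallest adjusted p with the block, the sensor genes with Xbp1, and genes called in the interaction test, plus Derl3 and Edem1, chosen after their values were seen. Up to 3 genes of each other list, by adjusted p with the block, were named. Exons of 16 of the 42 genes overlap another gene in GENCODE M21, for 3 of them one with at least 1 FPKM, and whether strand was used in counting is not given. Alternatives were another pseudocount (0.1), no filter, median centring, library quality weights, the permutation test, each library left out, and both number 1 libraries left out with and without the block. After the values were seen, 3 blocks and blocked fits with another pseudocount, no filter, median centring or 1 number left out were added.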

Additional observations from a re-analysis of the deposited data

Results flagged for a closer look

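In 3 of the 82 groups of 5 libraries examined (41 genes in each of doxorubicin and medium), 1 library lay far from the other 4, and chance flags about 1 group in 20. P4hb was at 347 FPKM in doxorubicin replicate 1, where doxorubicin replicates 2 to 5 were at 249.5 to 274. In medium replicate 1, P4hb was at 397 FPKM, where medium replicates 2 to 5 were at 220.3 to 268. Syvn1 was at 10.2 FPKM in medium replicate 1, where medium replicates 2 to 5 were at 13.0 to 13.3. All 3 flags fall on libraries with the replicate number 1, whose part in these values was not tested.

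For 8 genes the limma interaction test, whose adjusted p stand in the report, called a difference in response between numbers 4 and 5 and numbers 2 and 3. The grouping of the numbers was chosen from the expression data under test, so this test cannot decide whether the response differed. All 8 calls were lost with no filter on low values, and medium libraries also differed between these numbers. The difference of the effects, on the log2 scale, was 0.55 for Hspa5, 0.50 for Calr, 0.48 for Manf, 0.45 for Sdf2l1, 0.45 for Txndc11, 0.44 for Hsp90b1, 0.39 for Pdia6 and -0.38 for Sel1l.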

How the results depend on the processing

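With no block, 0 of the 41 genes were called with a pseudocount of 0.1, no filter, median centring, both number 1 libraries left out, or any 1 library left out. The replicate block gave 12 higher and 5 lower, the block without the number 1 libraries 13 and 7, 3 blocks 17 and 5, and library quality weights 17 and 6. Among blocked fits, no filter gave 0 higher and 0 lower, and median centring 18 and 2. Number 2 left out gave 14 and 4, number 3 left out 5 and 5, and number 4 or number 5 left out 1 and 0. For the blocked fits with no filter or with number 2, 3, 4 or 5 left out, counts of all tested genes are not given here. Calr was the 1 called gene kept in every blocked fit with a number left out.

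All tested genes gave 68 higher and 22 lower without the block, 771 and 1356 with it, 15 to 136 and 0 to 90 with 1 library left out, 283 and 273 without number 1, 1010 and 1817 without number 1 and with the block, 1379 and 2302 with quality weights, 1205 and 1963 with 3 blocks, and 0 and 0 by the exact permutation test, which needs at least 1567 genes at its smallest p to call any. The 100 other organelle genes gave 9 higher and 10 lower with the block, 1 and 2 without number 1, 10 and 14 without number 1 and with the block, 16 and 17 with quality weights, 13 and 14 with 3 blocks, and at most 1 lower with 1 library left out. Lower genes of the ATF4 list numbered 8 with the block, 8 without number 1 and with the block, 7 with quality weights and 8 with 3 blocks. The interaction test called 249 genes with the block instead of 154, and 0 genes, members included, with no filter. Its Sel1l call was lost with a pseudocount of 0.1 (0.0550).

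Of 1066 refits of single genes, 28 turned the sign, all for fold changes that were never called. Median centring gave 0.018 for Hspa13, 0.028 for Ppib and 0.041 for Rpn2, with or without the block. The block with number 2 left out gave 0.032 for Hspa13 and 0.023 for Rpn2, and with number 4 left out 0.0090 for Rpn2. Quality weights gave 0.0016 for Ppib, 0.0025 for Rpn2 and -0.013 for Selenos. Without number 1, Sec61a1 was at -0.012 and Selenos at -0.040, with or without the block. With 1 library left out, Hspa13 ran between -0.12 and 0.026, P4hb between -0.048 and 0.18, Ppib between -0.050 and 0.013, Sec61a1 between -0.021 and 0.083, Rpn2 between -0.055 and 0.034 and Selenos between -0.074 and 0.11. The cause of these changes was not tested. The depth behind FPKM is unknown, so low genes such as Derl3 carry an unknown counting error.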
